A study of Rattus norvegicus with 4 samples.

Results

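The chromosome ends examined here were the first and the last 3 Mb of the 20 numbered rat chromosomes in a Hi-C map of Schwann cells, in bins of 10 kb. A bin belonged to a first end when its start lay in the first 3 Mb of the assembled chromosome, and to a last end when its end lay in the last 3 Mb. The choice used position only and no measured value. It gave 12020 bins (6000 at first ends and 6020 at last ends) of 278214 bins in the table, or 4.59% of the bins on numbered chromosomes, and 40 ends of which 760 pairs lay on different chromosomes: 190 first-first, 380 first-last and 190 last-last pairs.

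A chromosome end carries a telomere, a repeat array that protects the end of the DNA, and next to it a subtelomere rich in sequence shared with other chromosomes. In a telocentric chromosome the centromere, where the kinetochore forms, sits at one end, which the assembly numbers as the first, while in a metacentric chromosome it sits near the middle and both ends are arm tips. Hi-C joins DNA fragments that lay close together in the nucleus and counts each joined pair as a contact: a cis contact joins fragments of the same chromosome and a trans contact joins different chromosomes. Telomeres and centromeres are known from microscopy to gather in clusters in many nuclei, and the nucleolus collects the chromosomes that carry ribosomal RNA genes.

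The cells were primary rat Schwann cells from sciatic nerve, the glia that myelinate peripheral axons, infected for 48 h at 2 viral units per cell. Lenti-AS cells received a lentivirus that overexpresses an antisense RNA (AS-RNA) of the promoter of Egr2, a transcription factor of myelination, and Lenti-GFP cells received the backbone virus with GFP. By the methods the AS-RNA was cloned into a vector named for DsRed, a red reporter, so the viruses differed in the reporter of their vector too, and the AS-RNA and the vector cannot be told apart. All 4 libraries came from infected cells and no uninfected cells were mapped. Each group had 2 libraries from equal numbers of cells, called independent samples in the labels with no statement that they were separate cultures, so p-values measure the spread between these libraries only. The comparison asked whether the contacts of chromosome ends differed between the viruses.

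The libraries held 94956821 and 110770015 contacts for Lenti-GFP, 74811640 and 70488877 for Lenti-AS. Of the contacts among numbered chromosomes, 12.2% to 12.5% were trans. Bins with fewer cis contacts than 0.25 of the median bin, summed over libraries, were left out, which kept 76.1% of first-end bins, 88.3% of last-end bins and 88.9% of interior bins. The remaining 9883 end bins were described, except that the test of single bins used a count filter of its own. The build was rn6 and no annotation or genome of that build was used here, so ends and bins are named by position without genes or sequence.

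First ends met first ends of other chromosomes more often than their trans contacts alone predict, last ends met last ends to a smaller degree, and first ends met last ends about as often as predicted in the main setting. The prediction (expected count) was the product of both ends' trans totals, scaled to all trans contacts of the library, and 1 means no preference. First-first contacts stood at 2.67 and 2.64 times expected in Lenti-GFP and at 2.61 and 2.64 in Lenti-AS. Last-last contacts stood at 1.52 and 1.52 in Lenti-GFP and 1.49 and 1.49 in Lenti-AS. First-last contacts stood at 1.01 and 1.01 in Lenti-GFP and 0.996 and 1.03 in Lenti-AS. Every library thus gave the same order of the 3 classes, and the classes did not overlap. Contacts between interior bins stood at 1.00, and ends met interior bins at 0.940 (first) and 0.978 (last) times expected, as means of the 4 libraries.

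On the log2 scale, relative to interior contacts, first-first contacts were 1.40 ± 0.01 (SD, n = 4 libraries), last-last 0.59 ± 0.02, first-last 0.01 ± 0.02 and all end pairs together 0.66 ± 0.01. An exact two-sided sign-flip test over the 4 libraries gave p = 0.125 for first-first, last-last and all pairs, which is the smallest p that 4 libraries allow, and p = 0.25 for first-last. First-first exceeded last-last by 0.81 ± 0.01 and last-last exceeded first-last by 0.57 ± 0.02 (exact sign-flip p = 0.125 each). Without the 1% of bins with the highest trans share the first-first value was 0.57 and the last-last value 0.44. As a median over pairs, first-first was 0.43 and last-last 0.49, so that the order of these classes turned. The first-last value ran from -0.18 to 0.75 over the alternatives, and its side of 0 depended on the setting.

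**Figure D1:**
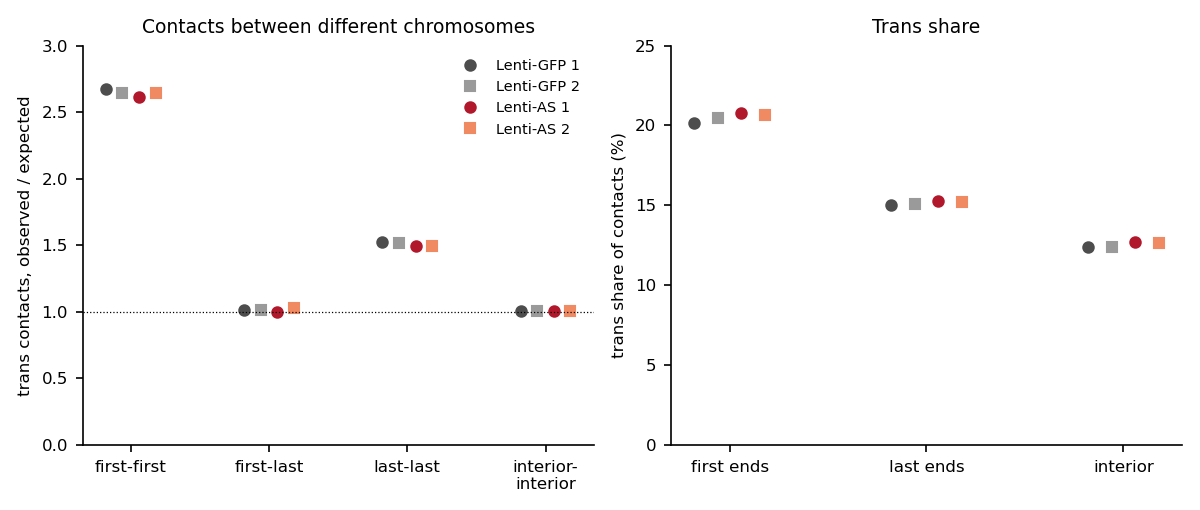
Left, trans contacts over expected (linear axis) for the 3 classes of end pairs and for pairs of interior bins. Right, the trans share of contacts in percent. Each point is 1 of 4 libraries, grey for Lenti-GFP and red for Lenti-AS. First-first points lie between 2.61 and 2.67, last-last points at 1.49 to 1.52 and first-last points near 1.

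The ends also sent more of their contacts to other chromosomes. The trans share, trans contacts over all contacts of a bin set, was 20.2% and 20.5% at first ends in Lenti-GFP and 20.8% and 20.6% in Lenti-AS. At last ends it was 15% and 15.1% in Lenti-GFP and 15.3% and 15.2% in Lenti-AS, and in the interior 12.4% and 12.4% in Lenti-GFP and 12.7% and 12.6% in Lenti-AS. First ends lay 7.97 ± 0.12 percentage points above the interior and last ends 2.61 ± 0.05 (SD, n = 4; exact sign-flip p = 0.125 each, the smallest possible). These shares pool bins, so chromosomes weigh about equally at the ends but by their length in the interior. Whether chromosome length bears on the difference was not tested. Single first ends ran from 13.5% to 47.4% and single last ends from 10.3% to 18.3%. The last ends of 2 (10.3%) and 6 (12.3%) lay below the median interior tile (12.4%). Without the 1% of bins with the highest trans share, which made up 6.5% of the used first-end bins, 1.28% of the last-end bins and 0.881% of the interior bins, the first-end difference was 4.08 points and the last-end difference 2.62 points.

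Both measures were lower at 3 Mb than at the outermost step. In steps of 0.5 Mb inward, first-end bins met first ends of other chromosomes at 4.26 ± 0.16 times expected in the outermost step, 2.73 ± 0.04 from 1 to 1.5 Mb and 1.42 ± 0.02 from 2.5 to 3 Mb (SD, n = 4). Without bin pairs of 10 or more contacts the first 3 steps stood at 2.63, 2.54 and 2.78, with no decline over them, and the step from 2.5 to 3 Mb at 1.47. Last-end bins met last ends at 2.56 ± 0.06 in the outermost step, 1.51 ± 0.02 in the next and 1.14 ± 0.01 from 2.5 to 3 Mb. Contacts of last-end bins with first ends were above expected only in the outermost step, at 1.54 ± 0.04, and fell to 0.829 ± 0.013 at 2.5 to 3 Mb. The sum for first-last pairs thus joined a step above 1 and 5 steps below it. Without bin pairs of 10 or more contacts these steps started at 1.32, 1.02 and 1.00 and ended at 0.868. Just past the boundary used here, from 3 to 3.5 Mb, first-end contacts stood at 1.82 ± 0.03 and last-end contacts at 1.12 ± 0.02. Counted between bins at equal depth in 3 Mb steps, contacts from 3 to 6 Mb stood at 1.17 ± 0.03 for first and 1.07 ± 0.01 for last sides, and last sides from 6 to 9 Mb at 1.31 ± 0.01 (1.11 without bin pairs of 10 or more contacts). Over chromosomes 1 to 13 last sides stood at 1.98 at the end, 1.39 from 3 to 6 Mb and 1.12 to 1.61 in the steps from there to 24 Mb. First sides on these chromosomes stood at 1.33 from 3 to 6 Mb and 1.07 to 1.19 in the further steps. Over chromosomes 14 to 20 first sides stood at 1.55 at the end and 1.09 to 1.26 from 3 to 24 Mb. Last sides there stood at 1.48 and at 0.910 to 1.24. Over all chromosomes first sides stayed above 1 to 24 Mb (1.08 to 1.19 from 3 Mb on), and last sides reached 0.980 from 18 to 21 Mb.

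The trans share also fell inward within the ends. It was 31.8% ± 0.5 in the outermost 0.5 Mb of first ends and 16.2% ± 0.1 from 2.5 to 3 Mb. At last ends it went from 18.7% to 13.7% over the same steps. Past the boundary, first sides did not fall further, at 17.5% ± 0.1 from 3 to 3.5 Mb and 16.7% ± 0.4 from 5.5 to 6 Mb. Last sides stood at 13.6% ± 0.4 and 13.5% ± 0.1 in those steps. The whole interior stood at 12.5% ± 0.2, so stretches just inside the ends lay above it too. The outermost first step was also the part with the fewest used bins, 50.2% against 88.1% at 2.5 to 3 Mb. Whether this coverage bears on the contact profile was not tested. With ends of 1 Mb, first-first contacts were 2.64, last-last 1.67 and first-last 0.75 on the log2 scale.

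**Figure D2:**
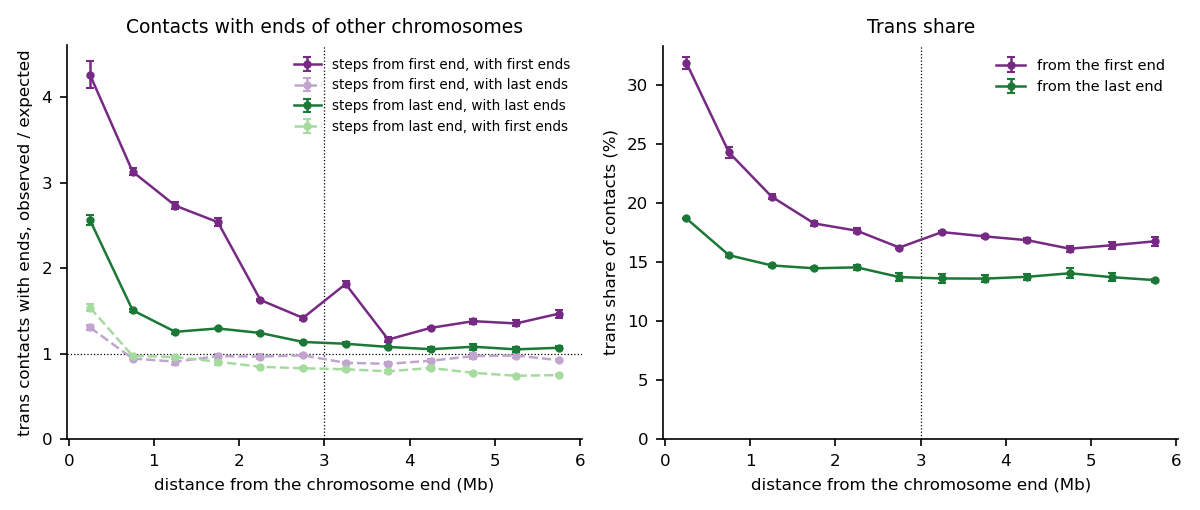
Mean of 4 libraries with SD bars in steps of 0.5 Mb from the chromosome end, with the 3 Mb boundary dotted. Left, trans contacts with first or last ends of other chromosomes over expected. Right, trans share in percent. First-first contacts start at 4.26 and last-last contacts at 2.56, and both drop below 1.5 before 3 Mb.

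Few pairs held much of the first-first contacts. Summed over libraries, the 5 first-first pairs with most contacts held 44.0% of 100633 first-first contacts, and without them the class stood at 1.56 times expected. For last-last pairs the 5 held 12.2% of 43578 contacts (1.36 without them) and for first-last pairs 10.3% of 67390 (0.920 without them). The median pair stood at 1.25 for first-first, 0.883 for first-last and 1.29 for last-last, against 0.942 for 321744 pairs of interior tiles, the 3 Mb stretches into which the rest of each chromosome was divided. Above 1 lay 136 of 190 first-first pairs (71.6%), 157 of 380 first-last pairs (41.3%) and 138 of 190 last-last pairs (72.6%), where 43.9% of interior pairs lay above 1. Above the interior pairs' 99th percentile (2.49), which 1% of those pairs exceed, lay 19 first-first, 7 first-last and 14 last-last pairs.

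The 3 first-first pairs with the highest ratio joined chromosomes 11 and 13, 3 and 12, and 7 and 11. The first ends of 11 and 13 shared 1839 and 2193 contacts in Lenti-GFP but 1352 and 1338 in Lenti-AS, or 57.5, 53.1, 45.9 and 46.6 times expected. The first ends of 3 and 12, both chromosomes that carry nucleolar organizers (the ribosomal RNA gene arrays), shared 3747, 4102, 2692 and 2433 contacts, or 40.2, 37.6, 37.3 and 36.8 times expected. The first ends of 7 and 11 shared 2264, 2665, 1892 and 1815 contacts, or 26.4, 24.4, 24.1 and 24.5 times expected. All 4 libraries showed each pair above the 99th percentile of interior pairs, whose highest value was 130, with the Lenti-AS libraries lowest for 11 with 13.

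These pairs differed in how their contacts were spread. Of the contacts between 3 and 12, 91.3% lay in pairs of 10 kb bins with 10 or more contacts and 50.7% lay between the outermost 0.5 Mb of both ends. The densest pair joined chr3:40001-50000 and chr12:460001-470000 with 1665, 1722, 932 and 851 contacts. Without such bin pairs the ends of 3 and 12 stood at 4.34 times expected. The contacts of 11 with 13 were spread over bin pairs of few contacts instead: 1.06% lay in pairs of 10 or more, and the ratio without them was 50.7. For 7 with 11 the share was 1.73% and the ratio without them 27.9. By steps of 0.5 Mb, the densest pair of steps held 17.2% of the contacts of 11 with 13 and 23.0% of those of 7 with 11. Leaving out the bins with the top 1% of trans share brought 11 with 13 to 1.45, 3 with 12 to 1.26 and 7 with 11 to 0.621 times expected. The 11 to 13 contacts were 2.59% of all contacts, cis included, of the first end of 13.

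The strongest first-last pairs joined the first end of 5 with the last end of 9 (26.2, 24.6, 23.6 and 23.4 times expected) and with the last end of 10 (14.9, 15.2, 15.3 and 15.1), followed by the first end of 20 with the last end of 3 (3.77, 3.94, 3.41 and 4.78). The strongest last-last pairs were 9 with 10 (27.1, 27.5, 27.1 and 28.3), 3 with 14 (6.96, 6.72, 5.64 and 5.99) and 3 with 5 (4.54, 4.86, 4.83 and 5.17). The first end of 5 and the last ends of 9 and 10 thus met one another in all 3 combinations, with 59.5% (5 with 9), 98.8% (5 with 10) and 65.4% (9 with 10) of the contacts between the outermost 0.5 Mb of both. Without bin pairs of 10 or more contacts these stood at 15.1, 0.201 and 15.4 times expected, so the pair of 5 with 10 was below expected there. Only 3 with 5 among these 6 pairs kept its ratio, at 4.81, without the bins with the top 1% of trans share. The other 5 went to values from 0.207 to 1.63.

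**Figure D3:**
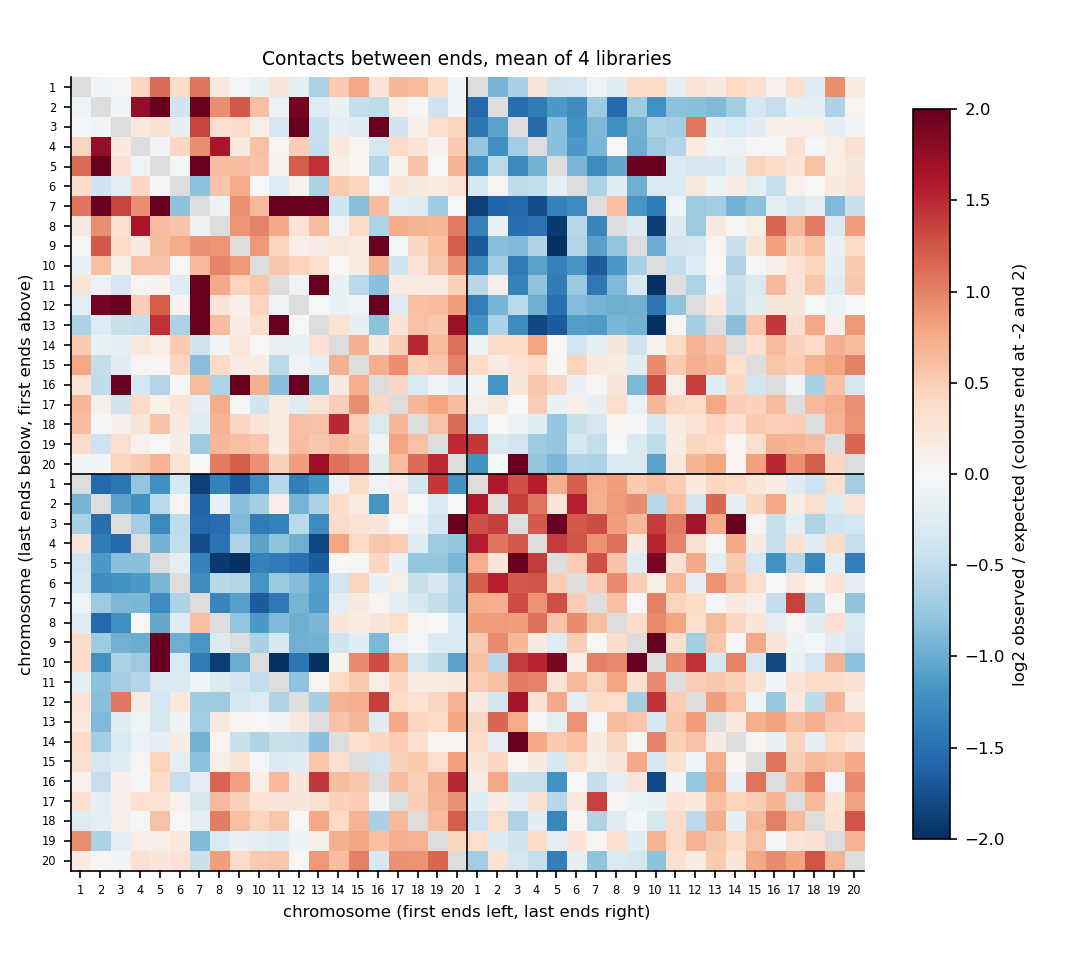
Mean log2 of observed over expected trans contacts for every pair of the 40 ends, first ends listed before last ends on each axis and both ordered by chromosome. Red is above and blue below expected, colours end at -2 and 2, and both ends of the same chromosome are grey. The block of first with last ends for chromosomes 1 to 13 is mostly blue, with a few red cells, while both blocks of like ends on these chromosomes are mostly red.

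The pairs differed with the shape of the chromosomes. Shape went along with size: metacentric chromosomes span 56.2 to 115 Mb and telocentric ones 113 to 266 Mb. Between metacentric and telocentric chromosomes, shape and size cannot be told apart here. By textbook karyotype, chromosomes 2 and 4 to 10 are telocentric, 1, 3 and 11 to 13 subtelocentric (with a very short arm at the first end) and 14 to 20 metacentric. The subtelocentric ones span 52.7 to 283 Mb, which overlaps both other ranges, and whether size bears on their pairs was not tested. The values by shape are a description with no test. Among telocentric chromosomes the median first-first pair stood at 1.56 (23 of 28 pairs above 1) and the median last-last pair at 1.85 (25 of 28), whereas the median first-last pair stood at 0.510 and 4 of 56 pairs lay above 1. Summed over these 56 pairs, which include the first end of 5 with the last ends of 9 and 10, first-last contacts stood at 1.04, 1.05, 1.07 and 1.08. Subtelocentric first ends with telocentric last ends gave 0.519 (4 of 40 above 1), and subtelocentric last ends with one another gave 1.59 (10 of 10). Subtelocentric first ends with one another had a median of 0.980 (5 of 10 above 1), and their sum, which holds 11 with 13 and 3 with 12, was 11.5. Subtelocentric first with last ends had a median of 0.674 (5 of 20 above 1).

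Metacentric chromosomes showed no such split between like and unlike ends. Their median pair stood at 1.58 for first-first (18 of 21 above 1), 1.52 for last-last (18 of 21) and 1.48 for first-last (38 of 42). With the expected within each pair of chromosomes these medians were 1.25, 1.34 and 1.22. The telocentric medians were then 2.08, 1.68 and 0.601. Summed over pairs, the metacentric first-last value was 1.47 and 1.46 in Lenti-GFP and 1.42 and 1.52 in Lenti-AS. Over chromosomes 1 to 13 the first-last value was 0.783 and 0.796 in Lenti-GFP and 0.799 and 0.808 in Lenti-AS. Metacentric first ends with telocentric last ends gave a median of 0.910 and telocentric first ends with metacentric last ends 1.04. With the expected within each pair of chromosomes these were 1.24 and 1.03. Like ends of a metacentric and a telocentric chromosome gave 1.10 for first-first (37 of 56 above 1) and 0.998 for last-last (28 of 56). With that other expected they were 1.15 and 1.25. The medians of pairs within the telocentric and within the metacentric chromosomes stayed on their side of 1 without bin pairs of 10 or more contacts and without the bins with the top 1% of trans share: the telocentric first-last median was then 0.524 and 0.625, and the metacentric one 1.47 and 1.5.

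**Figure D4:**
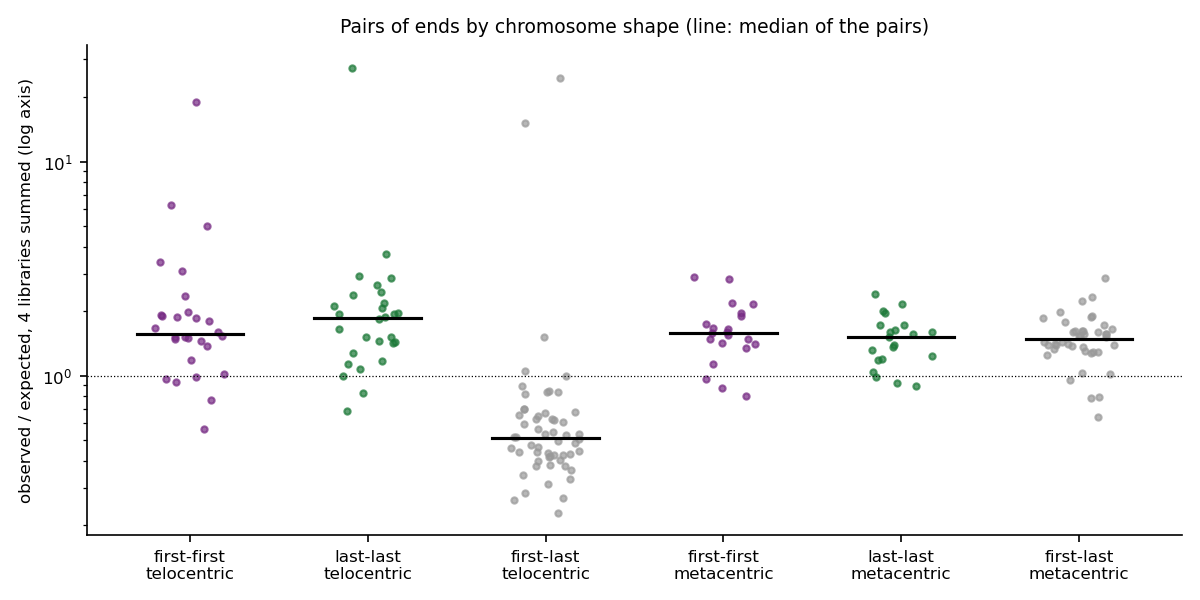
Observed over expected contacts, summed over 4 libraries on a log axis, of pairs of ends from 2 telocentric or 2 metacentric chromosomes. Each point is a pair of ends and each line the median of its group. The telocentric first-last group has its median at 0.510, below 1, and the other 5 groups have medians between 1.48 and 1.85.

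Across single ends, contacts with the ends of all other chromosomes ranged from 0.979 to 3.08 times expected at first ends and from 0.987 to 2.12 at last ends. The first end of 11 stood highest, at 3.19, 3.09, 2.99 and 3.02 in the order Lenti-GFP 1, Lenti-GFP 2, Lenti-AS 1 and Lenti-AS 2. The first end of 12 gave 3.08, 3.05, 3.01 and 3.01, and that of 7 gave 2.91, 2.93, 3.05 and 3.07. The lowest first ends were 6 (mean 0.979) and 10 (1.11). The highest last ends were 10 (2.13, 2.07, 2.10 and 2.18), 9 (1.93, 1.93, 1.87 and 1.95) and 3 (1.44, 1.43, 1.39 and 1.41), and the lowest were 5 (mean 0.987) and 7 (1.02).

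The high first ends differed in what else they shared. The first end of 7 had 127 of its 300 bins in use and a trans share of 47.4%, the highest of the 40, whereas the first end of 11 had 272 bins in use and a trans share of 17.9%, near the median first end (18.3%). Without the bins with the top 1% of trans share all 40 ends lay above 1, from 1.01 to 1.68. Of 828 interior tiles, 318 lay above 1 there. The first ends of 11, 12 and 7 then stood at 1.09, 1.19 and 1.14. Without bin pairs of 10 or more contacts these 3 ends stood at 3.12, 1.54 and 2.65. By the median over partner ends, 27 of 40 ends lay above 1, against 171 of 828 interior tiles, and the first end of 7 stood at 0.821. The interior tiles had a median of 0.914 and a 95th percentile of 1.27 for contacts with ends. Among first ends of nucleolar organizer chromosomes, that of 11 met those of 3 and 12 at 0.790 and 0.951 times expected, or 1.44 and 1.71 with the expected taken within each pair of chromosomes. Their last ends met at 3.13 (3 with 12), 2.05 (3 with 11) and 1.42 (11 with 12).

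Both ends of the same chromosome met more often than ends of different chromosomes: on the scale of the trans prediction they stood at 6.17 and 6.05 in Lenti-GFP and 5.77 and 5.54 in Lenti-AS, against about 1.01 for first-last pairs on different chromosomes. The ratio was highest for chromosomes 20 (16.7) and 12 (15.3), which span 56.2 and 52.7 Mb, and lowest for chromosome 2 (0.527), which spans 266 Mb. To set distance aside, this ratio of observed to predicted contacts was divided by that of the 3 neighbouring 3 Mb tile pairs just inward. Both terms were scaled by trans totals and are not plain counts. Summed over chromosomes, the log2 of this ratio was 0.05 and 0.02 in Lenti-GFP and 0.05 and -0.03 in Lenti-AS, with a mean of 0.02 ± 0.04 (SD, n = 4; exact sign-flip p = 0.375). At this width and filter the sum was not above the neighbours beyond the spread between libraries. The sum weighs chromosomes by their contacts, and chromosome 17, the lowest at 0.336, weighed most. Its neighbouring tile pairs held 12888 contacts over the 4 libraries, against 5259 for chromosome 12, the next. The sum without chromosome 17 was not computed. With all chromosomes the sum was 0.14 ± 0.04 with the stricter bin filter (0.5 of the median) and 0.26 ± 0.01 with ends of 5 Mb (exact sign-flip p = 0.125 each).

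The chromosomes lay on both sides of 1. For 11 of 20 chromosomes the ratio was above 1 in all 4 libraries, and for the other 9 it was below 1 in all 4. Chromosome 19 gave 2.50, 2.84, 3.04 and 2.89, chromosome 20 gave 2.91, 2.49, 2.67 and 2.60, and chromosome 8 gave 2.32, 2.62, 1.96 and 1.92. The lowest were chromosome 17 (0.355, 0.332, 0.365 and 0.294), chromosome 10 (0.417, 0.620, 0.457 and 0.463) and chromosome 5 (0.628, 0.629, 0.327 and 0.391). Of the 7 metacentric chromosomes 5 lay above 1, of the 5 subtelocentric 3 and of the 8 telocentric 3. The median over chromosomes was 0.22 on the log2 scale, and with ends of 1 Mb the sum was 0.57. Chromosome 7 moved from 0.825 to 2.11 without the bins with the top 1% of trans share.

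**Figure D5:**
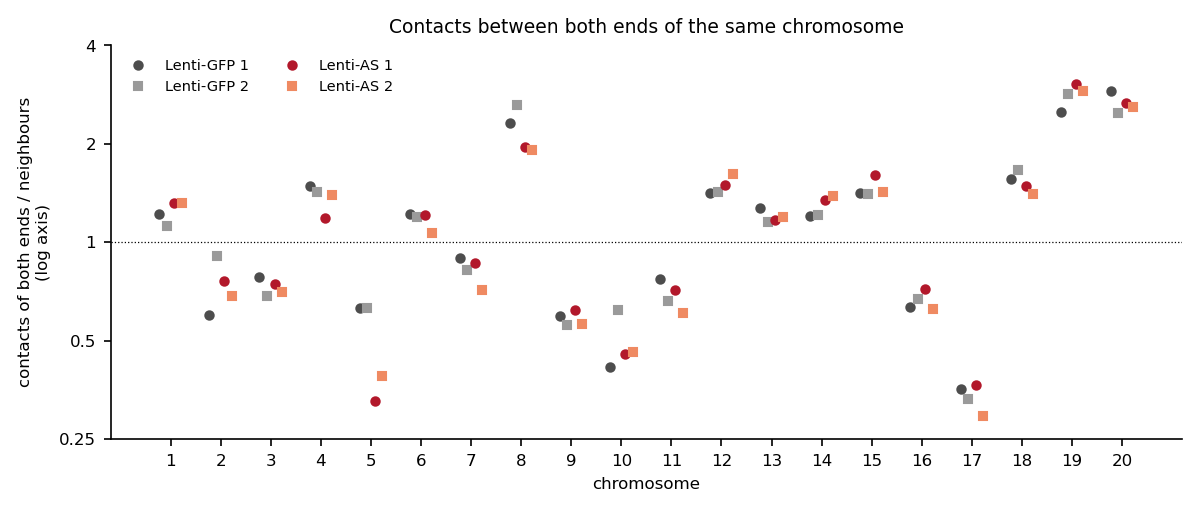
Contacts between the first and last end of the same chromosome, scaled by trans totals, over those of the 3 neighbouring tile pairs just inward, scaled alike. The log axis shows 20 chromosomes in 4 libraries (grey Lenti-GFP, red Lenti-AS). The 4 libraries lie on the same side of 1 on every chromosome, from 0.336 on chromosome 17 to 2.82 on chromosome 19 as means.

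Lenti-AS and Lenti-GFP gave closely similar values for the classes of end contacts. The Lenti-AS minus Lenti-GFP difference was -0.01 on the log2 scale for all pairs (exact permutation p = 1), -0.02 for first-first (p = 0.667), -0.001 for first-last (p = 1) and -0.03 for last-last (p = 0.333, the smallest that 2 against 2 libraries allow). Of these 4 values, last-last was the one whose groups did not overlap, with Lenti-AS lower. The trans share of ends minus interior differed by 0.023 percentage points (exact permutation p = 1), and the same-chromosome ratio by -0.02 (exact permutation p = 0.667). By kind, the trans share difference was 0.099 points at first ends (exact permutation p = 0.667). At last ends it was -0.084 points (exact permutation p = 0.333), and the groups did not overlap.

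Fitted with edgeR's quasi-likelihood test over all 353560 tile pairs, 1 of 759 tested pairs of ends passed an adjusted p of 0.05, where 0.00141% of all tile pairs passed. It was the first ends of 11 and 13, lower in Lenti-AS by -0.25 on the log2 scale (edgeR adjusted p = 0.0057). At an unadjusted p below 0.05 there were 38 pairs of ends (5.01%), against 5.37% of all tile pairs. Of these, 12 were higher in Lenti-AS (1.58%, against 2.78% of tile pairs) and 26 lower (3.43%, against 2.6%). By class, 11 first-first pairs (5.79%, all lower), 19 first-last pairs (10 higher and 9 lower) and 8 last-last pairs (2 higher and 6 lower) were below it. The median change was -0.02 over first-first pairs and 0.01 over all tile pairs. The call on 11 with 13 was lost without Lenti-GFP 1 (adjusted p = 0.743), Lenti-AS 1 (0.828) or Lenti-AS 2 (0.845), with TMM scaling in place of the offset for each tile (0.799) and in DESeq2 (1.00). The change was -0.20 to -0.26 in these, except under TMM, where it was -0.12. Its next pairs, the first ends of 14 with 19 and of 9 with 11, had an adjusted p of 0.797 each.

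For an end's contacts with all other ends, groups did not overlap in 14 of 40 ends that were lower in Lenti-AS (35%) and 3 that were higher (7.5%), against 21.1% and 15.2% of all 868 tiles described. Of 872 tiles tested, 0.229% passed the adjusted threshold, among them 1 end: the first end of 7, higher in Lenti-AS by 0.07 (edgeR adjusted p = 0.0096). That call was lost without any one library, where the change was 0.06 to 0.07. It was also lost with TMM scaling (change 0.11, edgeR adjusted p = 0.172) and in DESeq2 (change 0.07). At an unadjusted p below 0.05 there were 6 ends (15%), against 7% of tiles. The first end of 13 followed, with -0.10 and an adjusted p of 0.0591, which passed with the replicate number as a block. The median change was -0.02 over ends and -0.003 over all tiles.

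For contacts between both ends of the same chromosome, 0.616% of 15576 tile pairs at least 10 tiles apart passed, and among the 20 end pairs chromosome 5 did. Its ends shared 58 and 63 contacts in Lenti-GFP but 21 and 23 in Lenti-AS, a change of -0.91 (edgeR adjusted p = 0.038). At an unadjusted p below 0.05 there were 2 of 20, against 12.8% of tile pairs. The groups were well apart, yet the counts were small, and the adjusted p was 0.287 without Lenti-GFP 1, 0.0687 without Lenti-GFP 2, 0.295 without Lenti-AS 1, 0.206 without Lenti-AS 2 and 1.00 in DESeq2. Chromosome 12 came next, from 1119 and 1229 contacts to 744 and 727 in the smaller Lenti-AS libraries, with an adjusted p of 0.239. The median change was -0.02 over the 20 end pairs and 0.004 over all tile pairs tested.

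The trans share was higher in Lenti-AS over most tiles of the genome, ends included, and whether ends differed from other tiles in this was not tested. Groups did not overlap with Lenti-AS higher in 21 of 40 ends (52.5%) against 65.8% of tiles, and with Lenti-AS lower in 6 ends (15%) against 15.4%. In limma, 19 of 40 ends passed an adjusted p of 0.05, where 58.3% of all tiles passed: 16 were higher (40%, against 50.9% of tiles) and 3 lower in Lenti-AS (7.5%, against 7.34%). When each library was centred on its median tile, 19 ends passed (47.5%), against 52.1% of all tiles. Of these ends 7 were higher and 12 lower, and the split by direction over all tiles was not counted. Without centring 10 of these ends also passed, and 9 did not. Without Lenti-GFP 1, 2 ends passed (5%, against 17.4% of tiles) and without Lenti-GFP 2, 11 passed (27.5%, against 36%).

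The last ends of 3 and 13 passed in all 7 alternatives run. The last end of 3 had a trans share of 12.8% and 13% in Lenti-GFP and 13.9% and 13.9% in Lenti-AS, a change in log2(trans over cis) of 0.12 (limma adjusted p = 8.3e-05). The last end of 13 had 13.6% and 13.7% against 14.7% and 14.6% (0.12, limma adjusted p = 9.1e-05). Of the 3 ends that were lower, the last end of 14 went from 15.7% and 15.6% to 15% and 15% (-0.07, limma adjusted p = 0.0017). The last ends of 20 and 10 changed by -0.06 and -0.05. With each library centred on its median tile, the last ends of 14, 20 and 10 changed by -0.11, -0.09 and -0.09. None of these 3 ends passed in every alternative run.

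At 10 kb, 13 of 10914 end bins tested for their trans contacts passed an adjusted p of 0.05, or 0.119%, against 0.107% of all 242881 bins tested: 9 were higher and 4 lower in Lenti-AS, where 0.0671% and 0.0395% of all bins were. At an unadjusted p below 0.05 there were 1069 end bins, where 9.02% of all bins were below it. The median change was -0.01 over the end bins tested and 0.002 over all bins tested. Leaving out Lenti-GFP 2 raised the count to 73 (0.669%, against 0.402% of all bins). Leaving out Lenti-AS 1 gave 5 (0.0458%, against 0.0292%), leaving out Lenti-AS 2 gave 8 (0.0733%, against 0.049%), and DESeq2 called 3 (0.0275%, against 0.0189%). Of the 13 bins, 7 (6 at first and 1 at last ends) had too few cis contacts to enter the other results.

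The bin with the lowest p lay near the last end of 9, at chr9:119470001-119480000, 2.63 Mb from the end. Per 1000000 trans contacts among numbered chromosomes, it had 63.3 and 67.2 in Lenti-GFP and 126 and 135 in Lenti-AS. The change was 1.00 (edgeR adjusted p = 1.1e-20). Its trans contacts reached 3175 bins on all 19 other numbered chromosomes, and the most frequent partner held 1.46% of them. Its cis contacts, per 1000000 cis contacts, were 6.47 and 6.43 in Lenti-GFP and 8.71 and 7.47 in Lenti-AS. The bins on either side did not share the change, at -0.31 and -0.14.

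The bin chr11:88520001-88530000, 1.94 Mb from the last end of 11, had 11.5 and 11.3 trans contacts on the same scale in Lenti-GFP and 23.9 and 24.8 in Lenti-AS (1.10, edgeR adjusted p = 1.1e-11), spread over 684 bins. The bin chr4:182010001-182020000 had 7.94 and 7.45 in Lenti-GFP against 14.1 and 16.9 in Lenti-AS (1.01, edgeR adjusted p = 1.3e-07). Here 22.7% of the contacts went to 1 bin, chr1:36360001-36370000, with 12 and 3 contacts in Lenti-GFP but 44 and 44 in Lenti-AS. Without that partner the bin had 6.86 and 7.22 trans contacts per 1000000 in Lenti-GFP, then 9.17 and 11.7 in Lenti-AS, which were still higher. DESeq2 gave the chr4 bin an adjusted p of 0.0685, whereas the chr9 and chr11 bins passed in all 7 alternatives run.

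Of the 4 bins that were lower, chr3:30001-40000 changed most, from 124 and 106 trans contacts per 1000000 in Lenti-GFP to 69.5 and 76.4 in Lenti-AS (-0.66, edgeR adjusted p = 5.7e-09), and it passed in all 7 alternatives. Its cis contacts per 1000000 were also lower in Lenti-AS, at 10.2 and 10.9 against 17.4 and 12.6. The adjoining bin chr3:40001-50000, the densest partner of chromosome 12, gave 1016 and 1017 against 1046 and 979. Its partner chr12:460001-470000 fell from 224 and 199.6 to 164 and 153 (-0.42, edgeR adjusted p = 0.00081) and passed neither in DESeq2 (0.0760) nor without Lenti-AS 1 or Lenti-AS 2. Its cis contacts went from 11.1 and 10.4 to 7.22 and 7.84. The next bins by p were chr7:770001-780000 (0.73), chr20:1790001-1800000 (0.61), chr2:1380001-1390000 (1.06), chr1:180001-190000 (-0.49) and chr10:320001-330000 (-0.51), none of which passed in DESeq2. Of these 5 bins, chr7:770001-780000 passed with any one library left out. The chr20 and chr1 bins failed without Lenti-GFP 1, Lenti-AS 1 or Lenti-AS 2, and the chr10 bin without Lenti-AS 1 or Lenti-AS 2. The chr2 bin failed without Lenti-GFP 2 (0.87, adjusted p = 0.163) or Lenti-AS 1 (0.63, adjusted p = 0.728). The cis contacts of chr7:770001-780000 were 0.924 and 1.09 in Lenti-GFP, then 1.77 and 1.83 in Lenti-AS, and those of chr2:1380001-1390000 were 0.437 and 0.504, then 1.15 and 0.948. Both bins, and those on chromosomes 1 and 10, were among the 7 with few cis contacts.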

How the data were processed

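Per the labels and the study's methods, Arima Hi-C libraries were sequenced as 150 bp pairs and processed with HiC-Pro on rn6 (Rnor_6.0), with no version in the sources used here. The authors deposited raw counts, read pairs for each pair of 10 kb bins, for each of 4 libraries with an identical bin table; the balanced matrices and their bin tables were not used. Removal of duplicates and handling of multiply mapping reads are not given in the sources used here.

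Expected trans counts were products of trans totals over the numbered chromosomes. Since contacts between ends enter these totals, their excess raises the expected of ends and lowers ratios of ends, also those below 1. An expected fitted without them was tried, where first-last stood at 1.11 and 1.10 in Lenti-GFP and 1.08 and 1.12 in Lenti-AS. Functions were tested on simulated data. Groups were compared by exact permutation and, over whole tables, with edgeR 4.0.16, limma 3.58.1 and DESeq2 1.42.0 in R 4.3.3 (tile pairs with a mean count of at least 5; bins after filterByExpr; Benjamini-Hochberg adjustment). Python 3.11.15 and numpy 2.4.6 served for the rest. Counting error limits single pairs, single bins and same-chromosome pairs with few contacts. Named pairs on different chromosomes hold at least 100 contacts summed over libraries.

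Ends, pairs and lists were chosen with earlier results of these data known. Named were the 3 highest ends and 2 lowest of each kind and the 3 highest pairs of each class. The 3 highest and lowest same-chromosome ratios were also named. Group differences past the threshold were named, up to 10, or else the lowest p. For trans share, only the 2 ends that passed in every alternative and the 3 lower in Lenti-AS were named. Alternatives covered bin filters, end widths, the expected, scalings and left-out libraries.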

Additional observations from a re-analysis of the deposited data

How the results depend on the processing

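Values are log2 relative to interior contacts unless given in percentage points. All-pair, first-first and last-last contacts stayed above 0 in the 13 alternatives other than left-out libraries. First-first was 0.57 without the top 1% of bins by trans share, 0.43 as a median and 1.00 without chromosomes 3, 11 and 12. In 2 alternatives chosen after seeing the data it was 0.64 without the 5 largest pairs of each class and 1.58 with the expected fitted without contacts between ends. First-last turned to -0.0129 with a stricter bin filter (0.5), -0.117 with ends of 5 Mb, -0.0144 with the expected within each chromosome pair, -0.0486 with totals over all other sequences, -0.0837 as a median, -0.183 against the 167 interior tiles with the highest trans share and -0.124 without the 5 pairs. It rose to 0.18 with no bin filter, 0.11 without the top 1% of bins, 0.75 with ends of 1 Mb, 0.11 without chromosomes 3, 11 and 12 and 0.14 with the fitted expected. The same-chromosome ratio turned to -0.0062 without chromosomes 3, 11 and 12. The causes were not tested.

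Differences of Lenti-AS minus Lenti-GFP changed sign near 0. All-pair and first-first became 0.0035 and 0.0185 without chromosomes 3, 11 and 12. First-last became 0.0021 without the top 1% of bins, 0.0042 with 5 Mb, 0.0026 within chromosome pairs, 0.0105 as a median, 0.0058 against those 167 tiles, 0.0019 without the 5 pairs and 0.0024 after thinning to equal contacts. The same-chromosome ratio became 0.0112 with 5 Mb. The trans share difference became -0.0255 with the stricter filter, -0.0628 without the top 1%, -0.0527 with 1 Mb, -0.0183 without chromosomes 3, 11 and 12 and -0.0906 points as a median. Over left-out libraries these ran from -0.017 to 0.0031 (all pairs), -0.0256 to -0.0069 (first-first), -0.0295 to -0.0234 (last-last), -0.0216 to 0.0202 (first-last), -0.0604 to 0.015 (same chromosome) and -0.0396 to 0.0855 points (trans share).

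Counts of calls over left-out libraries ran from 0 to 1 (pairs of ends), 0 to 0 (ends, and same-chromosome pairs), 2 to 20 (trans share) and 5 to 73 (bins). The shares called over all tiles (trans share), all same-chromosome tile pairs and all bins also changed with the library left out. These ranges of counts therefore do not show a change particular to ends. With TMM scaling 0 pairs of ends were called, against 0.00651% of tile pairs. It called 2 ends, both lower in Lenti-AS (5%, against 2.87% of tiles). DESeq2 called 0 tile pairs on different chromosomes and 0 tiles for contacts with ends, ends included. It called 0 same-chromosome pairs of ends (against 0.0128% of such tile pairs) and 3 bins (0.0275%, against 0.0189% of bins). Replicate numbers did not pair the libraries: deviations of same-numbered libraries correlated at 0.0019 over 23685 tile pairs, -0.0013 over 206859 bins and -0.08 over 872 tiles. With the replicate number as a block 2 ends (5%, against 0.344% of tiles) and 1 pair of ends (0.132%, against 0.00198% of tile pairs) passed. So did 1 same-chromosome pair (5%, against 1.39%), 16 ends by trans share (40%, against 50.1%) and 15 bins (0.137%, against 0.131%). The first-first difference stayed at -0.0162.

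With 2 libraries in each group the smallest exact permutation p was 0.333. Depth limits single pairs of ends more than class sums, since the median pair of first ends held 221 contacts over the 4 libraries.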

Other observations

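Chromosome X is not a numbered chromosome and entered the values above only in the alternative with totals over all other sequences. Its first 3 Mb met first ends of the numbered chromosomes at 1.25 and 1.19 times expected in Lenti-GFP, then 1.18 and 1.14 in Lenti-AS. The 95th percentiles of 52 interior tiles of X were 1.08, 1.03, 1.05 and 1.04 in the same libraries. Its last 3 Mb met last ends at 1.32, 1.31, 1.14 and 1.31, where the 95th percentiles were 1.15, 1.19, 1.14 and 1.2, so Lenti-AS 1 was not above its own. Unlike ends stood lower: first X with last ends at 0.811, 0.927, 0.933 and 0.815, and last X with first ends at 0.622, 0.617, 0.690 and 0.638. The 5th percentiles of interior X tiles with first ends were 0.611, 0.588, 0.597 and 0.604, so last X was not below them in any library. With last ends the 5th percentiles were 0.847, 0.838, 0.828 and 0.852. First X was thus below them only in Lenti-GFP 1 and Lenti-AS 2. The difference between like and unlike ends of X had the same direction in all 4 libraries and was not tested.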
